A study of Mus musculus with 8 samples.

Results

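The E2F transcription factors and the pocket proteins that restrain them were followed in sorted mouse thymocytes. The members were chosen by gene symbol: E2f1, E2f2, E2f3, E2f4, E2f5, E2f7, E2f8, Rb1, Rbl1 and Rbl2, which is 10 of the 55359 gene IDs in the deposited tables. RNA sequencing covered 8 samples of 5 week old mice, sorted as double positive cells (DP, which carry CD4 and CD8 together) with absent to intermediate surface TCR beta. The 4 Lck-cre samples (replicates 5 to 8) carried LSL-Sting1-N153S together with Lck-cre, in which promoter elements of Lck drive Cre from an early stage of T cell development. The 4 controls (replicates 1 to 4) were LSL-Sting1-N153S/+ without Cre. Thus all 8 samples carried the Sting1 allele behind a loxP-flanked stop cassette, and N153S is known as a gain-of-function substitution of STING, the receptor for cyclic dinucleotides. There was 1 female per group, Lck-cre replicate 5 and control replicate 1, beside 3 males. The labels do not say whether each sample was a separate animal, so p-values measure the spread between these samples.

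E2F proteins bind DNA, mostly as dimers with a DP protein (a protein name unrelated to the double positive stage), and control genes of DNA synthesis and cell division. E2f1, E2f2 and E2f3 encode activators that the retinoblastoma protein, encoded by Rb1, holds inactive until cyclin-dependent kinases phosphorylate it. E2f4 and E2f5 encode repressors that act with the pocket proteins p107, encoded by Rbl1, and p130, encoded by Rbl2. E2f7 and E2f8 encode atypical repressors that bind DNA without a DP partner and without pocket proteins. In the thymus, cells divide as they pass the pre-TCR checkpoint into the DP stage and then become quiescent, and in mice loss of E2f1 or E2f2 is known to alter thymocyte death or T cell proliferation.

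E2F genes can themselves be under E2F control, so the promoter letters of the members are shown first. RefSeq promoter windows of GRCm38.p6, 300 bases long with 250 before and 50 after a start site, were found for 7 of the 10 members (9 windows): E2f1, E2f2, E2f3, E2f7, E2f8, Rbl1 and Rbl2. Both strands were searched for the E2F sites TTTCCCGC, TTTGGCGC, TTTCGCGC and TTTGCCGC and for the cell cycle homology region TTTGAA, a short element of many G2/M promoters. An E2F site lay in 4 of the 9 windows, those of E2f2, E2f3, E2f7 and Rbl1, against 2.26% of all 32851 windows. Of 32 windows found for 28 genes in a list of E2F targets, 13 held such a site. The element TTTGAA lay in 4 of the 9 windows, those of E2f3, E2f8, Rbl2 and a second start of E2f2, against 17.9% of all windows. No E2F site or TTTGAA was found in the window of E2f1, which says only that these letters are not in that window.

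The stretches below run 5′ to 3′ along the strand of the gene, with the matches in capitals, and no pair of matches overlaps.
Rbl1 (chr2:157204535-157204594, minus strand, positions -60 to -1 from the start): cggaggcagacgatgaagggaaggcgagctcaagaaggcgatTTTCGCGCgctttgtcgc
E2f3 (chr13:29986064-29986123, minus strand, positions -60 to -1): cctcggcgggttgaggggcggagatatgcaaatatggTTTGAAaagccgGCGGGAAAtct
E2f7 (chr10:110745215-110745274, plus strand, positions -224 to -165): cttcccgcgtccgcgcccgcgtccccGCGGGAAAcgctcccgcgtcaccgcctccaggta
E2f2 (chr4:136172294-136172323, plus strand, positions 21 to 50): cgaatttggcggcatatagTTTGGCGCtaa
E2f8 (chr7:48881597-48881656, minus strand, positions -60 to -1): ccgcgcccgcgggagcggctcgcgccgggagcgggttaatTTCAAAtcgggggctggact
In Rbl1 and E2f2 the E2F site read forward, and in E2f3 and E2f7 it read in reverse as GCGGGAAA. E2f3 carried TTTGAA and an E2F site within the same stretch, and E2f8 carried TTTGAA, in reverse as TTCAAA, but no E2F site. Of the 5 genes printed, E2f3, E2f8 and Rbl1 passed the test of expression described next, while E2f2 and E2f7 did not. A match is a description of letters and no measure of binding.

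Levels are in FPKM, fragments scaled by gene length and by the mapped fragments of the sample, as the authors computed them. As a check of the labels, Sting1 stood at 221, 85.4, 130 and 232 FPKM in Lck-cre replicates 5 to 8, against 15.3, 11.6, 13.4 and 11.9 FPKM in control replicates 1 to 4, so the groups did not overlap. All 7 DP markers examined were expressed, with summed levels of 3036 to 4027 FPKM across Lck-cre samples, against 4066 to 4399 FPKM across controls, and 4 of the 7 (Cd4, Rag1, Rag2 and Themis) were lower in Lck-cre. Total depth is unknown, as no read counts were used. Coverage per base of the members, also deposited by the authors, ran from 9.79 for Rb1 to 1101 for E2f2. Of 12337 genes tested over both groups with limma, 25.8% passed a Benjamini-Hochberg adjusted p of 0.05, 15.4% higher and 10.4% lower in Lck-cre, and the groups did not overlap in 29.4%. With TPM, the authors' values scaled to the same total in each sample, 10.5% were higher and 16.8% lower, so the balance of directions turned with the scaling. With sex in the fit and 1 female per group, leaving out 1 female gives the other no weight, so both such fits had the estimates of the males alone, 3 against 3 (652 calls). Each female was therefore left out with no sex term. The 3180 calls then numbered 2308 without Lck-cre replicate 5 and 2086 without control replicate 1, and with the sex term 1802 and 2079 without Lck-cre replicates 7 and 8 and 1256 and 2111 without control replicates 2 and 4. The call of Rag2 was lost without control replicate 2, and those of Rag1 and Rag2 with males alone. The calls of Cd4 and Themis (limma adjusted p = 0.0356 and 0.0474) were not followed with samples left out.

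E2f1, E2f3, E2f8 and Rbl1 rose in Lck-cre DP thymocytes, by 1.80-fold, 1.43-fold, 1.43-fold and 1.34-fold of mean FPKM. By limma 0 members fell and the other 6 did not pass, while at an unadjusted p under 0.05 there were 5 higher and 1 lower (Rbl2). With TPM, E2f1, E2f8 and Rbl1 rose and Rbl2 fell. All 10 members had at least 1 FPKM in all 8 samples, so none was tested through 1 group alone. The share called, 40% of the members, stands beside 25.8% of all genes. The 4 called members were also the 4 without overlap between groups, beside 29.4% of all genes tested without overlap. The median log2 change was 0.13 over the members and 0.01 over all genes tested. An exact permutation test over the 70 assignments of samples to groups, two-sided, gave p = 0.0286 for each of the 4 genes, the smallest p it can give, and p of 0.0857 to 0.714 for the others.

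**Figure D1:**
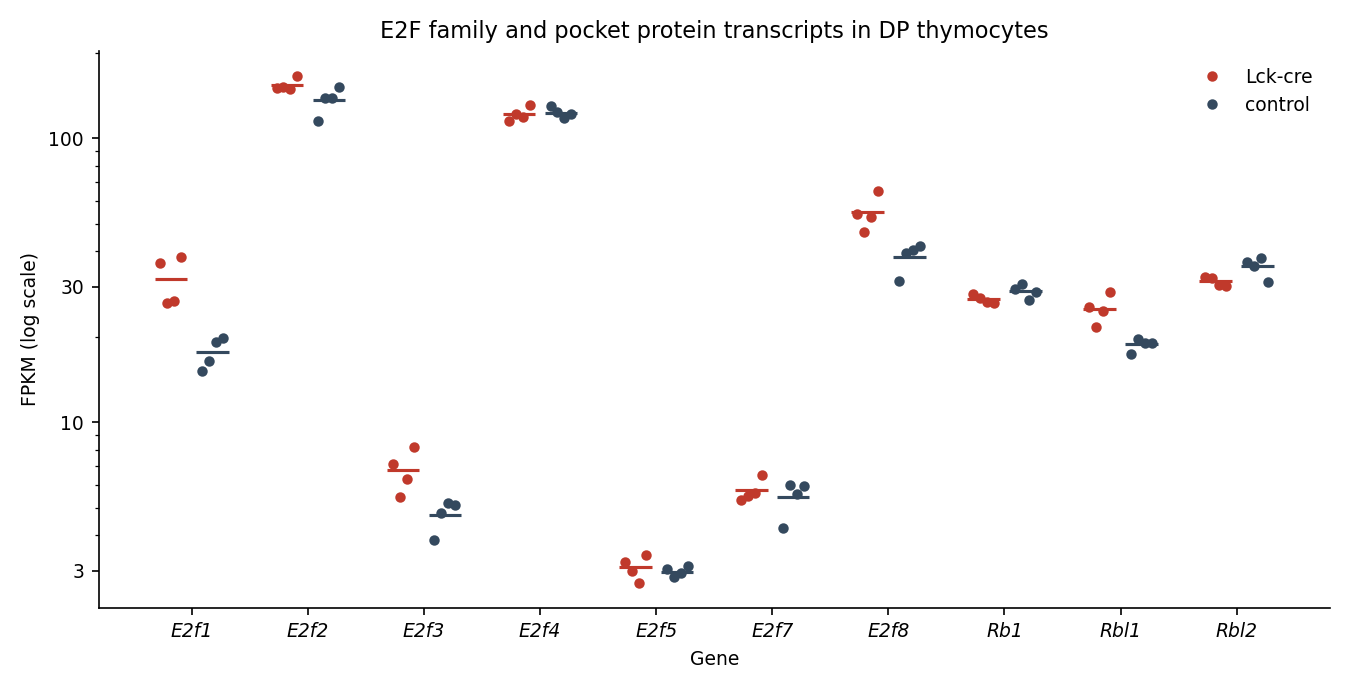
FPKM of each member (log axis) in Lck-cre samples (red) and controls (blue), 1 point per sample in the order of replicate numbers, with a line at the group mean. The groups do not overlap for E2f1, E2f3, E2f8 and Rbl1, and they do for the other 6 genes. Over all genes tested they do not overlap in 29.4%.

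The levels themselves spread widely. E2f2 and E2f4 stood highest, at 154 ± 7.75 and 121 ± 6.56 FPKM in Lck-cre, against 136 ± 15.5 and 123 ± 4.86 FPKM in the controls (SD, n = 4 each). Together they made up 70.9% to 75.8% of the FPKM summed over the 7 E2F genes in Lck-cre samples, against 77.8% to 80.9% in controls. E2f8 came next in both groups. Rbl2, Rb1, E2f1 and Rbl1 followed between 15.2 and 38.1 FPKM, then E2f3 and E2f7 between 3.83 and 8.15 FPKM, and E2f5 was lowest at 2.73 to 3.40 FPKM. E2f1 moved in this order, with rank 4 by mean in Lck-cre and rank 7 in the controls. In Lck-cre its range of 26.3 to 38.1 FPKM overlapped those of Rbl2, Rb1 and Rbl1, so these neighbours are not set apart there. The place of Rb1 holds for FPKM alone, as its coverage was far lower for its FPKM than in the other members.

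Among the activators, E2f1 showed the largest log2 change of the 10 members. The files place it (ENSMUSG00000027490.18) at 154401327 to 154411812 of chromosome 2, minus strand, without naming the build. E2f1 stood at 36.2, 26.3, 26.7 and 38.1 FPKM in Lck-cre replicates 5 to 8, against 15.2, 16.4, 19.1 and 19.8 FPKM in control replicates 1 to 4. The lowest Lck-cre sample was above the highest control. The limma fit put the difference at 0.82 on the log2 scale, with an SE of 0.14, 95% limits of 0.50 and 1.15 and adjusted p = 0.00907. The call held in all 21 alternative settings, with log2 changes of 0.69 to 0.91.

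E2f2, the most abundant activator, which is known to restrain T cell proliferation in mice, did not pass. It stood at 150.1, 150.8, 149 and 165 FPKM in Lck-cre replicates 5 to 8, against 115, 138, 139 and 152 FPKM in control replicates 1 to 4. The groups overlapped, because control replicate 4 was above 3 of the Lck-cre samples, and control replicate 1 was well below the rest. The limma fit put the difference at 0.19 on the log2 scale, with an SE of 0.07, 95% limits of 0.02 and 0.35 and adjusted p = 0.0940.

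E2f3, whose gene makes a long and a short protein from separate promoters that these gene-level values do not tell apart, was far less abundant. It stood at 7.14, 5.44, 6.32 and 8.15 FPKM in Lck-cre replicates 5 to 8, against 3.83, 4.78, 5.18 and 5.09 FPKM in control replicates 1 to 4. The groups did not overlap, with 5.44 FPKM in the lowest Lck-cre sample and 5.18 FPKM in the highest control. The limma fit put the difference at 0.47 on the log2 scale, with an SE of 0.13, 95% limits of 0.17 and 0.77 and adjusted p = 0.0321. With TPM the change was 0.42 and the call was lost (adjusted p = 0.0537 by limma). It was also lost without Lck-cre replicate 7 or 8 and without control replicate 2 or 4 (limma adjusted p of 0.0556 to 0.0811). With no sex term it was lost as well without Lck-cre replicate 5 (0.0641) or control replicate 1 (0.0639).

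The pocket-dependent repressors did not move past the spread between samples. E2f4, the main E2F of quiescent cells, stood at 115, 121, 118 and 130.4 FPKM in Lck-cre replicates 5 to 8, against 129, 123, 118 and 122 FPKM in control replicates 1 to 4. The ranges were nearly the same, and the log2 change was -0.02 (95% limits -0.16 and 0.12, limma adjusted p = 0.835). E2f5 stood at 3.21, 2.99, 2.73 and 3.40 FPKM in Lck-cre and at 3.03, 2.84, 2.94 and 3.11 FPKM in the controls. Here too the Lck-cre range enclosed the control range, with a log2 change of 0.04 (95% limits -0.17 and 0.25, limma adjusted p = 0.785), which was -0.03 with TPM.

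The atypical repressors, E2f7 and E2f8, parted. E2f8 stood at 53.9, 46.9, 52.9 and 65.4 FPKM in Lck-cre replicates 5 to 8, against 31.4, 39.4, 40.4 and 41.7 FPKM in control replicates 1 to 4. All Lck-cre samples were above all controls, and control replicate 1 was again the lowest. The limma fit put the difference at 0.51 on the log2 scale, with an SE of 0.11, 95% limits of 0.27 and 0.75 and adjusted p = 0.0132. E2f7 stood at 5.33, 5.48, 5.64 and 6.54 FPKM in Lck-cre, against 4.24, 6.03, 5.60 and 5.94 FPKM in the controls. The groups overlapped, and the log2 change was 0.08 (95% limits -0.13 and 0.29, limma adjusted p = 0.552). The ratio of E2f8 to E2f7 within a sample was 8.55 to 10.1 across Lck-cre samples, against 6.55 to 7.40 across controls. The call of E2f8 was lost with the 6 males alone (limma adjusted p = 0.0616) and held with any 1 sample left out, the females with no sex term. The value of E2f7 was -0.03 without control replicate 1 and no sex term.

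Of the pocket proteins only Rbl1 rose under the FPKM test. Rbl1, whose protein p107 is known to accumulate in cycling cells, lies at 156987813 to 157046454 of chromosome 2, minus strand, in the files (ENSMUSG00000027641.14). It stood at 25.5, 21.6, 24.7 and 28.8 FPKM in Lck-cre replicates 5 to 8, against 17.4, 19.7, 19.0 and 19.0 FPKM in control replicates 1 to 4. The groups did not overlap, and limma put the difference at 0.40 on the log2 scale, with an SE of 0.09, 95% limits of 0.20 and 0.61 and adjusted p = 0.0154. This call too was lost with the 6 males alone (limma adjusted p = 0.0704) and held with any 1 sample left out, the females with no sex term.

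Rbl2, whose protein p130 is known to prevail in quiescent cells, went the other way in value. It stood at 32.5, 32.1, 30.4 and 30.2 FPKM in Lck-cre replicates 5 to 8, against 36.7, 35.6, 37.9 and 31.3 FPKM in control replicates 1 to 4. Control replicate 4 lay within the Lck-cre range, and the other 3 controls lay above it. The limma fit put the difference at -0.17 on the log2 scale, with an SE of 0.07, 95% limits of -0.33 and -0.01 and adjusted p = 0.101. With TPM it was -0.24 and passed (adjusted p = 0.0313 by limma), with 74.2, 72.0, 66.6 and 67.7 TPM in Lck-cre and 86.1, 85.9, 86.5 and 74.4 TPM in the controls.

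Rb1, the gene of the retinoblastoma protein, stood at 28.3, 27.3, 26.4 and 26.2 FPKM in Lck-cre replicates 5 to 8, against 29.4, 30.7, 26.8 and 28.8 FPKM in control replicates 1 to 4. The groups overlapped, and the log2 change was -0.09 (95% limits -0.23 and 0.04, limma adjusted p = 0.273). For Rb1 1 FPKM stood for a coverage of 0.366 to 0.386 per base, against 4.04 to 7.87 in the other members, so its deposited coverage and FPKM are not on the same footing as theirs. With coverage scaled by sample in place of FPKM the change of Rb1 was -0.06.

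**Figure D2:**
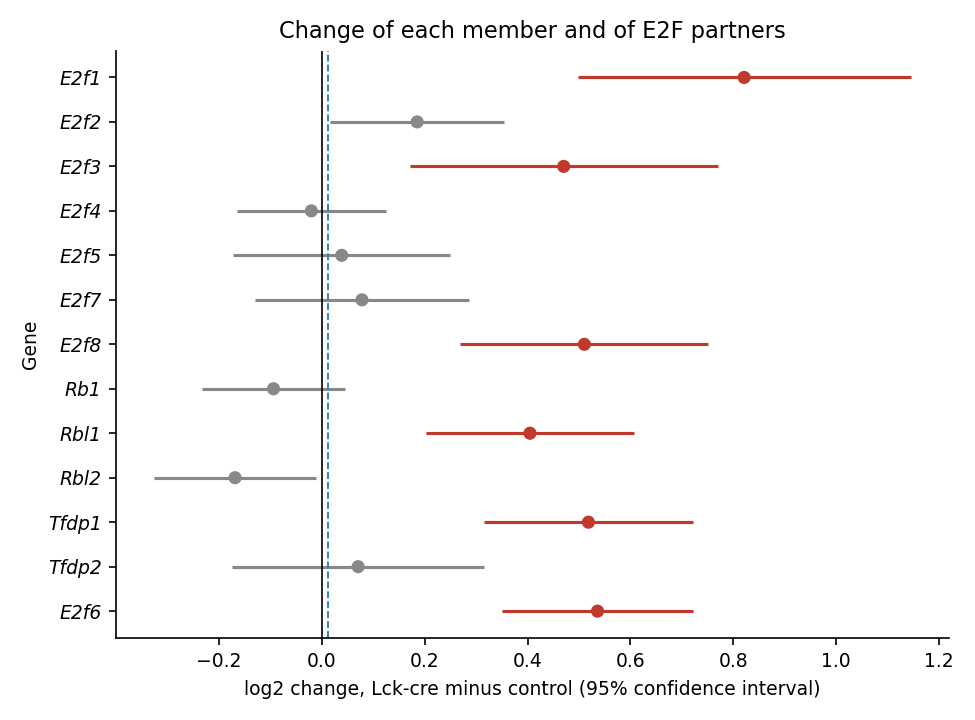
Log2 change of FPKM, Lck-cre minus control, with the 95% confidence interval of limma, for the 10 members, then Tfdp1, Tfdp2 and E2f6. Red marks genes called higher and grey those not called, the solid line is at 0 and the dashed line at 0.01, the median of all genes tested. E2f1 lies furthest to the right at 0.82 and Rbl2 furthest to the left at -0.17.

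The makeup of the pocket protein transcripts differed between the groups in value, while the ranges of their sum overlapped. Summed over Rb1, Rbl1 and Rbl2, the level was 81.0 to 86.3 FPKM across Lck-cre samples, against 79.1 to 86.0 FPKM across controls. Rbl1 made up 26.6% to 33.7% of this sum in Lck-cre samples, against 20.8% to 24.1% in controls. By deposited coverage per base Rbl1 stood far above Rb1 in every sample, at 102 to 166 against 9.79 to 11.3. The sum, the shares and the comparison of Rbl1 with Rb1 below therefore hold for FPKM alone. The ratio of Rbl1 to Rbl2 was 0.785, 0.671, 0.811 and 0.951 in Lck-cre replicates 5 to 8, against 0.474, 0.554, 0.502 and 0.608 in control replicates 1 to 4. In Lck-cre replicate 8 Rbl1 stood above Rb1, at 28.8 against 26.2 FPKM, and in the other 7 samples it stood below. Likewise the ratio of E2f1 to E2f4, an activator to a repressor, was 0.315, 0.217, 0.225 and 0.292 in Lck-cre and 0.117, 0.133, 0.163 and 0.162 in the controls. Such ratios show unequal change of the genes in them and are given with no test.

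**Figure D3:**
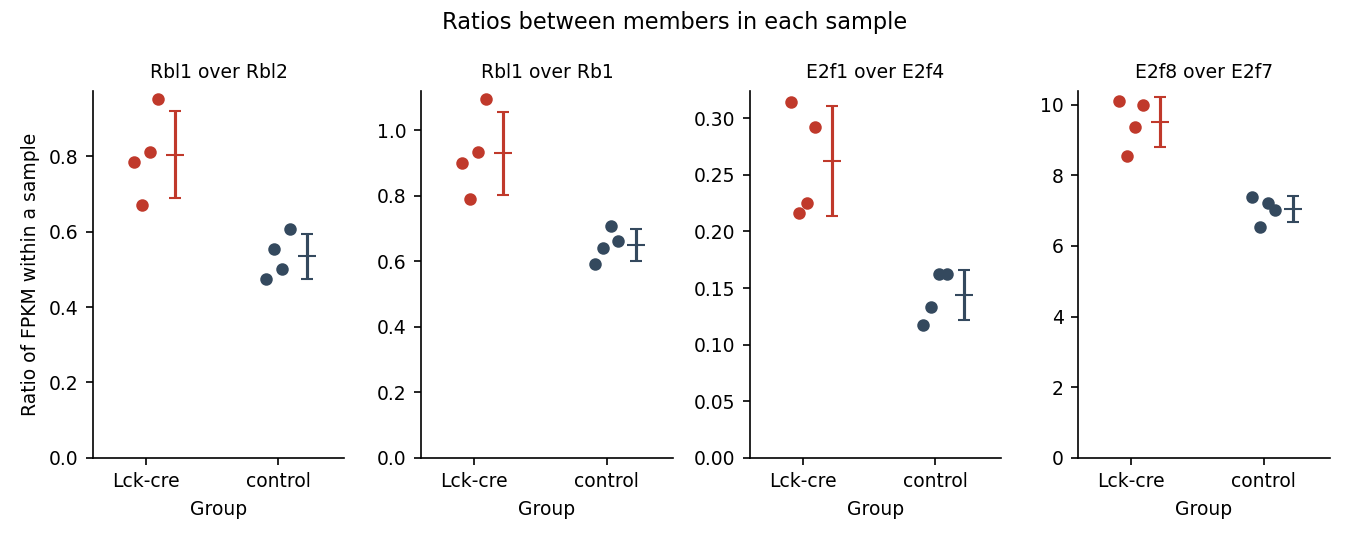
Ratio of FPKM values within each sample for 4 pairs of members, Lck-cre left and control right, with axes from 0; points are samples, and the bar beside them is the mean with its SD (n = 4). In each of the 4 pairs the Lck-cre samples lie above the controls, for Rbl1 over Rbl2 at 0.671 to 0.951 against 0.474 to 0.608. Each pair sets a called member over one not called, so this separation largely repeats those calls. Of ratios not drawn, E2f1 over E2f2 was apart as well. E2f2 over E2f4 overlapped, at 1.2438 to 1.3035 in Lck-cre and 0.8855 to 1.2442 in controls.

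The Lck-cre samples, but not the controls, took the same order in the 4 called members. Lck-cre replicates stood as 8, 5, 7 and 6 from high to low for E2f1, E2f3, E2f8 and Rbl1, which was also the order of Sting1. That order held in 8.41% of all genes tested and in 22.9% of the 1901 called higher. Among the controls, replicate 1, the female, was lowest in E2f1, E2f2, E2f3, E2f7, E2f8 and Rbl1, as it was in 22.5% of all genes tested and in 48.1% of those called higher. With 4 samples a group and the groups apart, no correlation was computed.

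As the control female was lowest in these genes, the sexes are given side by side. E2f1 stood at 36.2 FPKM in the Lck-cre female and 15.2 FPKM in the control female (2.39-fold), and averaged 30.3 FPKM in the Lck-cre males and 18.5 FPKM in the control males (1.64-fold, n = 3 each). Rbl1 differed 1.46-fold between the females and 1.30-fold between the males. The test of the difference between the sexes, an interaction term of limma with 1 female a group, gave an estimate of 0.54 (95% confidence interval -0.14 to 1.22) for E2f1 and passed in 0 of the 10 members and 0 of the 12337 genes, 336 of which had an unadjusted p under 0.05. With the males alone E2f1 kept its call (adjusted p = 0.0450 by limma), while E2f3, E2f8 and Rbl1 lost theirs (0.132, 0.0616 and 0.0704).

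The partners of the E2F proteins divided as the members did. Tfdp1, which encodes the widely used dimer partner DP1, rose 1.44-fold, with 108, 96.1, 99.5 and 123 FPKM in Lck-cre replicates 5 to 8 and 66.2, 74.8, 75.9 and 79.9 FPKM in control replicates 1 to 4. The groups did not overlap (log2 change 0.52, SE 0.09, adjusted p = 0.00905 by limma). Tfdp2, the second partner gene, did not pass (log2 change 0.07, limma adjusted p = 0.657), and its sign turned with TPM (-0.0013). E2f6, an E2F repressor that works without pocket proteins, rose to 8.26 ± 0.783 FPKM in Lck-cre, against 5.53 ± 0.289 FPKM in the controls (SD, n = 4 each; adjusted p = 0.00750 by limma). The calls of Tfdp1 and E2f6 held in all 21 alternative settings.

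E2F target genes rose nearly as a whole. Of 36 listed genes of DNA replication, nucleotide synthesis and the G1 to S transition, 32 rose and 0 fell by limma, or 31 and 0 with TPM. Beside this and the list counts below, 15.4% of all genes tested were higher and 10.4% lower. With TPM these shares were 10.5% and 16.8%. At an unadjusted p under 0.05 the counts were 33 and 0, and the median log2 change was 0.65. Tyms, which makes thymidylate, stood at 39.8 ± 4.42 FPKM in Lck-cre and 23.7 ± 2.60 FPKM in the controls, and Ccne1, the E-type cyclin that activates Cdk2, at 24.5 ± 3.26 and 14.2 ± 1.25 FPKM in the same order (SD, n = 4 each). Changes of the called genes ran from 0.34 for Ccna2 to 0.91 for Mcm3. Dck, Rpa1, Ezh2 and Cdca7 did not pass. With the 6 males alone 17 of the 36 rose, and with 1 sample left out, the females with no sex term, 29 to 32 rose. Of 14 mitosis genes 12 rose and 0 fell by limma (13 and 0 at an unadjusted p under 0.05), with a median of 0.49, among them the kinase gene Aurkb and the kinetochore gene Ndc80. Summed, the targets stood at 2697 to 3488 FPKM across Lck-cre samples, against 1856 to 2326 FPKM across controls, and the mitosis genes at 983 to 1314 FPKM against 645 to 887 FPKM in the same order. In bulk RNA a larger share of cycling cells and more RNA per cell cannot be told apart, and the part of such a share in the rise of E2f1, E2f3, E2f8 and Rbl1 was not tested.

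**Figure D4:**
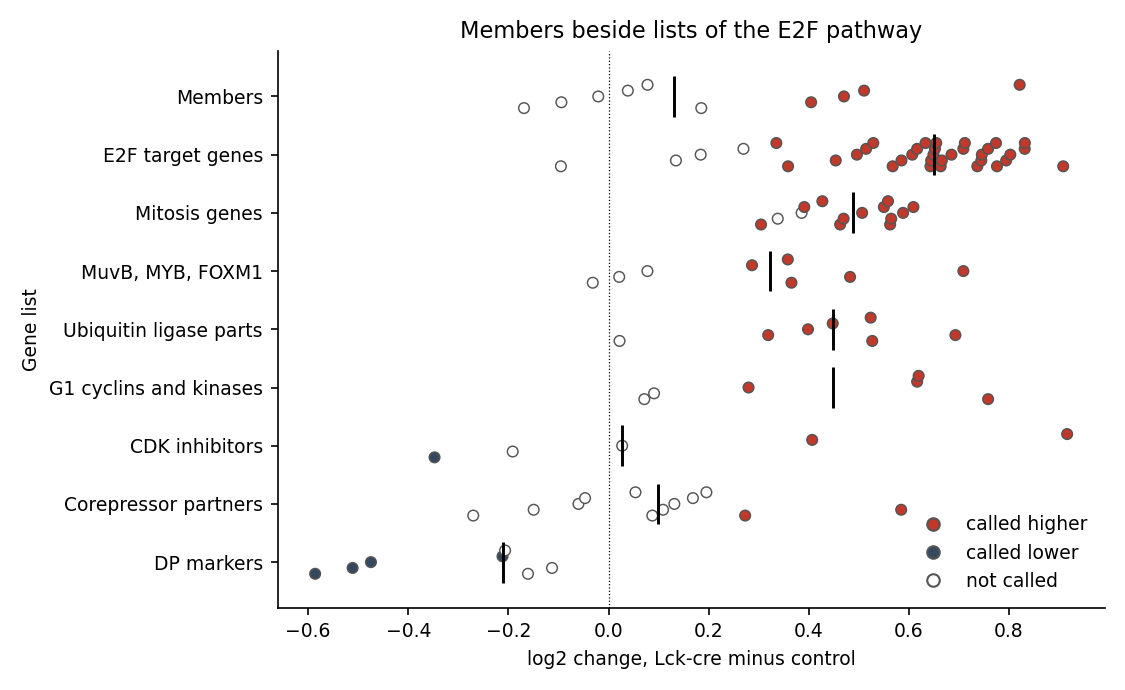
Log2 change of each tested gene, Lck-cre minus control, for the members, 7 lists around the E2F pathway and the DP markers; filled points are called higher (red) or lower (blue), open points are not called, and black bars are medians. The members spread from -0.17 to 0.82, and their median of 0.13 lies below the 0.65 of the E2F target genes.

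The MuvB complex joins p107 or p130 and E2F4 to repress cell cycle genes, and joins B-MYB and FOXM1 to activate them. By limma this list of 8 had 5 genes higher and 0 lower, also at an unadjusted p under 0.05, and with TPM it had 2 and 0. Mybl2, which encodes B-MYB and is itself a known E2F target, stood at 28.7 ± 4.38 FPKM in Lck-cre and 17.3 ± 2.14 FPKM in the controls, and Foxm1 at 74.6 ± 12.8 FPKM in Lck-cre and 57.4 ± 4.88 FPKM in the controls (SD, n = 4 each). Mybl1, Lin54 and Rbbp4 also rose, with log2 changes of 0.48, 0.36 and 0.29. The MuvB core genes Lin9, Lin37 and Lin52 did not pass, at log2 changes of 0.08, 0.02 and -0.03, and the sign of Lin37 turned with TPM (-0.05). The call of Mybl2 held when any 1 sample was left out. Those of Mybl1, Lin54 and Foxm1 were lost on leaving out any 1 control and on leaving out Lck-cre replicate 5, the females with no sex term, and those of Mybl1 and Lin54 also without Lck-cre replicate 7 or 8. Rbbp4 lost its call without control replicate 2, and without control replicate 1 and no sex term. The scaling mattered too. With TPM the calls of Mybl1, Lin54 and Foxm1 were lost. That of Foxm1 was also lost with quantile normalization, and that of Mybl1 with median-of-ratios scaling.

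Upstream, the kinases that phosphorylate pocket proteins and their inhibitors moved in part. The G1 cyclin and kinase list had 6 tested genes, 4 of them higher and 0 lower by limma, also at an unadjusted p under 0.05, and 3 and 0 with TPM. Cdk4, the partner of D cyclins, stood at 113 ± 13.9 FPKM in Lck-cre and 72.8 ± 5.09 FPKM in the controls (SD, n = 4 each). Ccne1, given above, and with it Ccne2 and Cdk2 rose. Ccne1 and Ccne2 are in the E2F target list too, as is Mybl2 of the MuvB list, so their calls are counted under both lists. Ccnd3, the D cyclin with by far the highest level here, did not pass. It stood at 820.2 to 910.1 FPKM across Lck-cre samples, against 763 to 858 FPKM across controls. Ccnd2 lay under the filter at 0.342 to 1.66 FPKM across Lck-cre samples, against 0.124 to 0.227 FPKM across controls, and was not tested. Of 5 tested inhibitor genes 2 rose and 1 fell by limma. Cdkn1b, whose product p27 restrains Cdk2, fell to 82.9 ± 11.0 FPKM in Lck-cre, against 105 ± 3.72 FPKM in the controls, while Cdkn1a, a p53 target, stood at 2.53 ± 0.765 and 1.07 ± 0.171 FPKM in the same order (SD, n = 4 each). Cdkn2c rose as well (log2 change 0.41). All 3 inhibitor calls were lost with the males alone. That of Cdkn1b was also lost without Lck-cre replicate 7 or without any 1 male control, and that of Cdkn2c without Lck-cre replicate 5 and no sex term.

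Genes of ubiquitin ligases that act on E2F proteins or on the cell cycle beside them gave 6 calls higher and 0 lower among 7 by limma, and the same at an unadjusted p under 0.05 and with TPM. Cks1b, a cofactor of the SKP2 ligase, stood at 89.5 ± 10.6 FPKM in Lck-cre and 55.5 ± 9.13 FPKM in the controls, and Fbxo5, an inhibitor of the anaphase-promoting complex, at 61.2 ± 7.02 FPKM in Lck-cre and 42.4 ± 4.91 FPKM in the controls (SD, n = 4 each). Chromatin factors that pocket proteins recruit gave 2 calls higher and 0 lower among 12 by limma. The share higher was near the 15.4% of all genes tested, so this list does not stand out. At an unadjusted p under 0.05 the counts were 4 and 1, and with TPM 1 and 1. Their median log2 change was 0.10. The 2 were the histone-binding gene Rbbp7 (log2 change 0.58) and the methyltransferase gene Suv39h1 (0.27). Both calls were lost with the males alone. That of Suv39h1 was also lost on leaving out any 1 of Lck-cre replicates 7 and 8 and controls 2 and 3, or control replicate 1 with no sex term.

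Markers of neighbouring cell types were read in the same samples. Of 6 double negative (DN) stage genes, which mark the preceding stage, 3 were tested and 2 rose, Ptcra and Dtx1, at log2 changes of 0.49 and 0.71. The third, Il2ra, did not pass (log2 change 0.65, limma adjusted p = 0.0734), and at an unadjusted p under 0.05 all 3 were higher. The list summed to 46.3 to 68.7 FPKM across Lck-cre samples, against 32.6 to 44.6 FPKM across controls. Most of this was Ptcra, at 36.6 to 49.2 FPKM against 25.7 to 33.6 FPKM in the same order. In Dtx1 and Il2ra the groups overlapped. Of the 3 genes under the filter, Hes1 and Il7r had the higher mean in Lck-cre, with overlapping groups. Hes1 averaged 2.06 FPKM against 0.501 FPKM, and Il7r 0.504 FPKM against 0.212 FPKM. Kit averaged 0.649 FPKM against 0.682 FPKM and stayed under 1 FPKM in every sample. Among 5 mature T cell markers 3 were tested, and Klf2 rose (log2 change 0.92), and the list summed to 61.1 to 72.6 FPKM across Lck-cre samples, against 71.3 to 75.7 FPKM across controls. B cell markers summed to 7.85 to 15.5 FPKM across Lck-cre samples, against 12.3 to 16.9 FPKM across controls, nearly all of it Cd79b, which did not pass (log2 change -0.29). Myeloid and dendritic markers summed to 3.35 to 3.98 FPKM across Lck-cre samples, against 2.76 to 3.44 FPKM across controls, and thymic epithelial markers to 3.84 to 5.13 FPKM against 3.45 to 5.55 FPKM in the same order. Erythroid markers summed to at most 0.224 FPKM in Lck-cre and were listed at 0 in all controls. In the myeloid and epithelial lists the genes tested were Itgam and Epcam, which hold most of those sums, at log2 changes of -0.03 and -0.02. The other 5 myeloid and dendritic markers all had the higher mean in Lck-cre, at levels under the filter, and summed to 0.568 to 1.54 FPKM across Lck-cre samples, against 0.260 to 0.277 FPKM across controls. Lyz2, a lysozyme of macrophages, stood at 0.297 to 0.951 FPKM in Lck-cre and 0.136 to 0.185 FPKM in the controls, and the groups were also apart in Csf1r, the receptor gene of macrophage growth factor, at 0.0221 to 0.0626 FPKM and 0 to 0.0116 FPKM in the same order. The other 4 epithelial markers likewise all had the higher mean in Lck-cre and summed to 0.238 to 0.549 FPKM, against 0.0840 to 0.233 FPKM in the controls, with the groups apart in Krt8, a keratin gene. These low genes were not tested, and no marker in any of these lists was at 0 in all samples. The calls of Ptcra and Klf2 were lost with the males alone, and those of Dtx1 and Klf2 without Lck-cre replicate 5 and no sex term. Klf2 was also lost on leaving out Lck-cre replicate 8, controls 2 or 3, or control replicate 1 with no sex term. The part of DN, myeloid or epithelial cells in the rise of the 4 members was not tested.

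The tested genes nearest in pattern to 3 called members were taken by the mean absolute difference of centred log2 values over the 8 samples. Nearest to E2f1 were Pus7, Rad54l and Trdc, at differences of 0.07, 0.08 and 0.08, where the median gene lay at 0.41. Rad54l encodes a DNA repair helicase-like protein, Pus7 a pseudouridine synthase and Trdc the constant part of the TCR delta chain. For E2f8 they were Kifc1, a mitotic kinesin gene, Syde2 and Nup205, a nuclear pore gene, at 0.02, 0.03 and 0.03, with a median of 0.27. For Rbl1 they were Aars, an aminoacyl-tRNA synthetase gene, Parp1 and Rad50, which serve DNA repair, at 0.02, 0.03 and 0.03, with a median of 0.23.

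**Figure D5:**
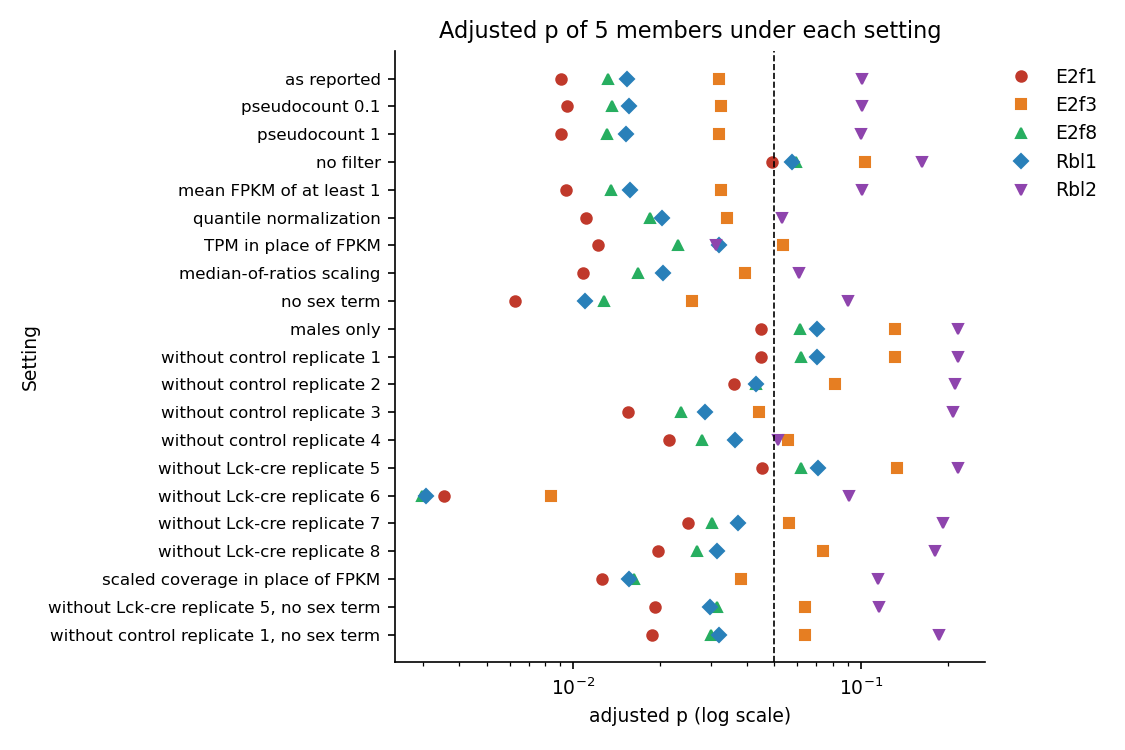
Adjusted p by limma (log axis) of E2f1, E2f3, E2f8, Rbl1 and Rbl2 as reported and under 20 alternative settings, with a dashed line at 0.05. E2f1 lies left of the line in every setting shown, E2f3 crosses it most often of the 4 called members, and Rbl2 lies left of it with TPM alone.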

How the data were processed

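RNA of 8 samples was extracted with a column kit, and the labels name BGI Americas beside it. HISAT and Bowtie2 are named in the submitters' processing notes. The sources used here do not give versions, genome build, annotation or strandedness. Per the file headers, each deposited table holds FPKM, TPM and coverage per base by gene, computed by the authors. Values under 1 gene ID were added up. The filter kept genes reaching 1 FPKM in 4 or more samples. limma 3.58.1 (R 4.3.3, variance trend, prior degrees of freedom 4.17) was fitted to log2 of FPKM plus 0.5 with sex and genotype as terms. Tests were two-sided, and p-values were adjusted by Benjamini-Hochberg over every gene kept, with a threshold of 0.05. This scale understates the change of low genes. The fit was tested on simulated data whose shifts were larger than the changes of the called members, so it was not tested at their size. Tables came from pandas 2.3.3 and NumPy 2.4.6 under Python 3.11.15, permutations used SciPy 1.17.1, and figures Matplotlib 3.10.9. A fold is the ratio of mean FPKM values, and an SD is over 4 samples. The members, lists and tests were chosen with earlier results of these data known. Named genes were the members, the partner and MuvB lists whole, up to 2 called genes in each direction of every other list by smallest adjusted p (or 1 with none called), the 3 genes nearest in pattern to 3 members, and Sting1. Other list genes, such as Ccna2, Mcm3, Dck, Ccnd2, Ccnd3, Cd4, Themis, Lyz2, Csf1r and Krt8, were named after their values were seen. Alternatives covered the pseudocount, the filter, the scaling, the sex term, the samples used and a threshold of 0.01.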

Additional observations from a re-analysis of the deposited data

Results flagged for a closer look

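Among 102 groups of 4 samples, 2 held a sample set apart from the other 3 by a gap that takes up nearly the whole range of the group (Dixon's test at 95%), where chance gives about 1 in 20. E2f2 stood at 165 FPKM in Lck-cre replicate 8, while the other 3 Lck-cre samples lay between 149 and 150.8 FPKM. Foxm1 stood at 93.8 FPKM in the same sample, while the other 3 lay between 66.9 and 69.0 FPKM.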

How the results depend on the processing

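Of 1071 values for 51 named genes under 21 alternative settings, 872 kept direction and call, 171 lost the call, 1 gained it and 27 turned in sign. Genes called over all numbered 1056 with no filter, 652 with males only and 512 at an adjusted p under 0.01, against 3180 as reported. With the sex term, leaving out Lck-cre replicate 5 (647) or control replicate 1 (653), the females, gave the estimates of males only. Leaving out any 1 male, or a female with no sex term (added after the data were seen; 2308 without Lck-cre replicate 5, 2086 without control replicate 1), gave 1256 to 3889. Members called higher numbered 1 (E2f1) with no filter, with males only and at 0.01, and 3 to 4 with 1 sample so left out; the 1 called lower with TPM was Rbl2, and leaving out a sample called 0. E2F targets called higher numbered 18, 17 and 18 in the 3 settings and 29 to 32 with 1 sample so left out. Signs turned with TPM for E2f5 (-0.028), Tfdp2 (-0.0013) and Lin37 (-0.053), with quantile normalization for Lin37 (-0.015) and with median-of-ratios scaling for Lin37 (-0.00090). With males only, and so with either female left out beside the sex term, they turned for E2f4 (0.028), Tfdp2 (-0.041) and Epcam (0.034), and with scaled coverage, a setting added after the data were seen, for Itgam (0.056). Without control replicate 1 and no sex term they turned for E2f4 (0.0038), E2f7 (-0.027) and Epcam (0.091), and without Lck-cre replicate 5 and no sex term for E2f4 (0.0037). Leaving out 1 sample beside the sex term gave ranges of -0.058 to 0.028 for E2f4, -0.010 to 0.086 for E2f5, -0.041 to 0.15 for Tfdp2, -0.0063 to 0.063 for Lin37, -0.085 to 0.00064 for Lin52, -0.090 to 0.034 for Itgam and -0.11 to 0.055 for Epcam. The causes were not tested. No paired analysis was run, because the sample labels give no pairing. Without counts, the limit set by depth is unknown.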
